A study of Mus musculus with 11 samples.

Results

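Granule protein genes of neutrophils and monocytes were examined in LSKs (Lin-Sca1+Kit+ bone marrow cells, the fraction that holds HSCs and multipotent progenitors). The members were the 10 genes Mpo, Elane, Prtn3, Ctsg, Ngp, Camp, Ltf, S100a8, S100a9, and Lyz2, taken by gene symbol from a table of 12647 genes, and all 10 were present and passed the filter on low counts. They were split by textbook order of expression into 4 early genes (Mpo, Elane, Prtn3, and Ctsg) and 6 late genes (the rest). RNA-seq covered 9 libraries, 3 each from p53+/+, p53R248W/+, and p53-/- mice of 8 to 12 weeks on a C57BL/6 background, without tumors and with no treatment named in the labels. The p53+/+ mice carried a humanized p53 knock-in (HUPKI) allele, and p53R248W/+ mice were heterozygous for the R248W missense change in that same allele, so the control shares the humanized gene with the mutant. The paper does not describe how the p53-/- allele was made, so other differences between the alleles could not be separated from the loss of p53. Nothing in the labels says whether a library came from a single mouse or a pool, nor whether libraries of a genotype were separate sorts. The p-values therefore measure only the spread between these libraries, which may be technical in part. The 2 H3K27me3 ChIP samples of the series were not analysed here.

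Granule proteins are made in waves as a granulocyte matures. Primary (azurophil) granule proteins such as myeloperoxidase and the neutrophil serine proteases are transcribed in promyelocytes, and their transcripts are also found at low levels in progenitors before commitment. Secondary and tertiary granule proteins and the S100a8/S100a9 cytosolic complex follow in myelocytes and later stages, under C/EBPε among other factors, while PU.1 acts on the early genes. In bulk RNA, a change in the number of cells of a type and a change in RNA per cell cannot be told apart.

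The libraries held from 18021375 to 29750702 gene counts, with a median of 20116602. The sorting markers of LSKs were read in every library, with Kit at 427 to 861 and Ly6a (Sca1) at 149 to 444 CPM (counts scaled to a common library size, with TMM factors). Trp53 itself was at 125 to 376 CPM in p53+/+, 219 to 241 in p53R248W/+, and 112 to 129 in p53-/- libraries, and p53+/+ library 1 lay within the range of p53-/- libraries. These reads were summed over the whole gene, so reads from parts that the p53-/- allele may still transcribe could not be separated.

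In 2 libraries, p53+/+ library 2 and p53R248W/+ library 2, 5 of the 6 late genes (all but Lyz2) stood apart from the other 7 libraries. With fold changes taken after adding 0.5 CPM, 35 genes were at least 8-fold above each of the other 2 libraries of the genotype in p53+/+ library 2, against 23 in p53R248W/+ library 2 and 5 in p53-/- library 2. The first pair of lists had 22 genes in common, which is 62.9% of the p53+/+ list and 95.7% of the p53R248W/+ list. The same 2 libraries had reads of Xist, transcribed from the inactive X of females, together with Y-linked genes. Xist was at 65.0 and 149 CPM there while the sum of 4 Y-linked genes was at 110.4 and 69.8 CPM. In p53R248W/+ library 3 Xist was at 6.26 CPM and the Y-linked sum at 184 CPM, and in the other 6 libraries Xist was at 116 to 283 CPM with a Y-linked sum of at most 0.216 CPM. The labels do not give the sex of the mice, and the part of sex in the values below was not tested. Tests, list counts, and correlations that include these 2 libraries are given without them in the same or a later paragraph where their call or size changes.

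The 250 bases before the annotated start of each member were taken from RefSeq (GRCm38.p6), in which all 10 members were matched. The motif AGGAAGT, a core of PU.1 sites, was found on either strand in 4 of 4 early genes and in 2 of 6 late genes (S100a8 and Lyz2), and in 7.69% of 32851 promoters of the same length. The motif TTGCNNAA, a core of C/EBP sites, was found in 0 of 4 early genes and in 3 of 6 late genes (Ngp, Ltf, and S100a9), and in 9.56% of the promoters, and the motifs do not overlap in any member. Camp had neither. The 4 early genes and the 3 late genes with the C/EBP core are shown 5′ to 3′ on the strand of the gene, with the motif in capitals. A match describes the letters alone, and both motifs were chosen with the members known.
Mpo (chr11:87793534-87793783, plus strand): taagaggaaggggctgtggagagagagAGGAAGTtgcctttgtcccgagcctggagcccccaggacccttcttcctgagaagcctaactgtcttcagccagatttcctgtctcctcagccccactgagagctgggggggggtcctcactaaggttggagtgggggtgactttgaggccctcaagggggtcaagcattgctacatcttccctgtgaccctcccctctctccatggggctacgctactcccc
Elane (chr10:79886062-79886311, plus strand): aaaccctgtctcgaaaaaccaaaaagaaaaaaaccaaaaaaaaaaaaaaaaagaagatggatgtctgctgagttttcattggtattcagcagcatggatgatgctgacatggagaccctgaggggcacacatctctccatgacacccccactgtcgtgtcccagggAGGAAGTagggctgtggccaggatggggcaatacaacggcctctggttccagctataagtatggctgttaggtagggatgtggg
Prtn3 (chr10:79879417-79879666, plus strand): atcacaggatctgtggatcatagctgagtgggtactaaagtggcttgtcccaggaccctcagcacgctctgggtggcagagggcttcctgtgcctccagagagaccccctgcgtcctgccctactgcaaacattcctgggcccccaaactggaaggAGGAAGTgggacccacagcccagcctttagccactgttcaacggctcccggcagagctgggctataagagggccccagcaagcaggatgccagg
Ctsg (chr14:56102575-56102824, minus strand): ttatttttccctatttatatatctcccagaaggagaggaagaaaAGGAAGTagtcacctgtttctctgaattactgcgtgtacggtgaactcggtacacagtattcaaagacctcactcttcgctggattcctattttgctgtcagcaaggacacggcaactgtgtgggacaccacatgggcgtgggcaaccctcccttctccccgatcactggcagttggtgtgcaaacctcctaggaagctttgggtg
Ngp (chr9:110419558-110419807, plus strand): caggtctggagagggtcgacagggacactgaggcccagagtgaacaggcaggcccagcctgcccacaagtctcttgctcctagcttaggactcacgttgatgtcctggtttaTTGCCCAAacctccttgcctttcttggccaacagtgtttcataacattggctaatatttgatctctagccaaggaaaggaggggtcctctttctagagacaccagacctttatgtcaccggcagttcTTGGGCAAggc
Ltf (chr9:111019042-111019291, plus strand): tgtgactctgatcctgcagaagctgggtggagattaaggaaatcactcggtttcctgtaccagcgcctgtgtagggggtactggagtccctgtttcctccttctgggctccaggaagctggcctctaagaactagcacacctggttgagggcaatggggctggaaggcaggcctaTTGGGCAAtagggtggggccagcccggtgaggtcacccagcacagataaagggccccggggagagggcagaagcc
S100a9 (chr3:90695722-90695971, minus strand): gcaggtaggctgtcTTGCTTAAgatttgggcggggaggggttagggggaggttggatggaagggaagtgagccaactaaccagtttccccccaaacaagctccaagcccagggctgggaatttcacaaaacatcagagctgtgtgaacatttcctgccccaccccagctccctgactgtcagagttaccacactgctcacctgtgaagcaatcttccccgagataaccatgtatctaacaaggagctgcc
Counted from the start, the motif began at base -223 in Mpo and base -206 in Ctsg, and nearer the start in Elane (base -84) and Prtn3 (base -94). Ngp held the C/EBP core at 2 places, from base -138 and from base -11.

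Several members are neighbors. Prtn3 (proteinase 3, a serine protease) and Elane (neutrophil elastase) lie on chromosome 10 with 3137 bases between them. S100a8 and S100a9, which encode the subunits of calprotectin, lie on chromosome 3 with 22595 bases between them. Camp (the cathelicidin antimicrobial peptide), Ngp (neutrophilic granule protein), and Ltf (lactoferrin, which binds iron) follow each other along chromosome 9 over a stretch of 1.20 Mb. Ctsg (cathepsin G) is on chromosome 14 and Lyz2 (lysozyme of macrophages, monocytes, and neutrophils) on chromosome 10. Lyz2 has a close paralog in the mouse, Lyz1, which was not analysed here, and how reads were divided between them is not known. Mpo is on chromosome 11 (87793784 to 87804412), 18.2 Mb from Trp53, so it is linked to the locus by which the genotypes differ.

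Per length of the gene, Mpo, the peroxidase that makes hypochlorous acid, had the highest mean of the 10 members in each genotype. Its level was 970.1 ± 274 CPM per kilobase of gene length (RPKM; mean ± SD, n = 3) in p53+/+, 1657 ± 537 in p53R248W/+, and 491 ± 70.6 in p53-/- LSKs. Lyz2 stood at 619.7 ± 321, 626 ± 166, and 426 ± 22.8 RPKM in the same order. In p53-/- LSKs the 4 early genes and Lyz2 held the first 5 places, from 491 down to 82.8 RPKM, and the other 5 late genes lay below them, from 39.5 (S100a8) to 0.285 RPKM (Ltf). In p53+/+ and p53R248W/+ LSKs the late genes were mixed with the early genes by their means, but the SDs of the late genes other than Lyz2 were larger than their means. The median of Ltf over p53+/+ libraries was 5.98 RPKM, for instance, against a mean of 70.3 RPKM.

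**Figure D1:**
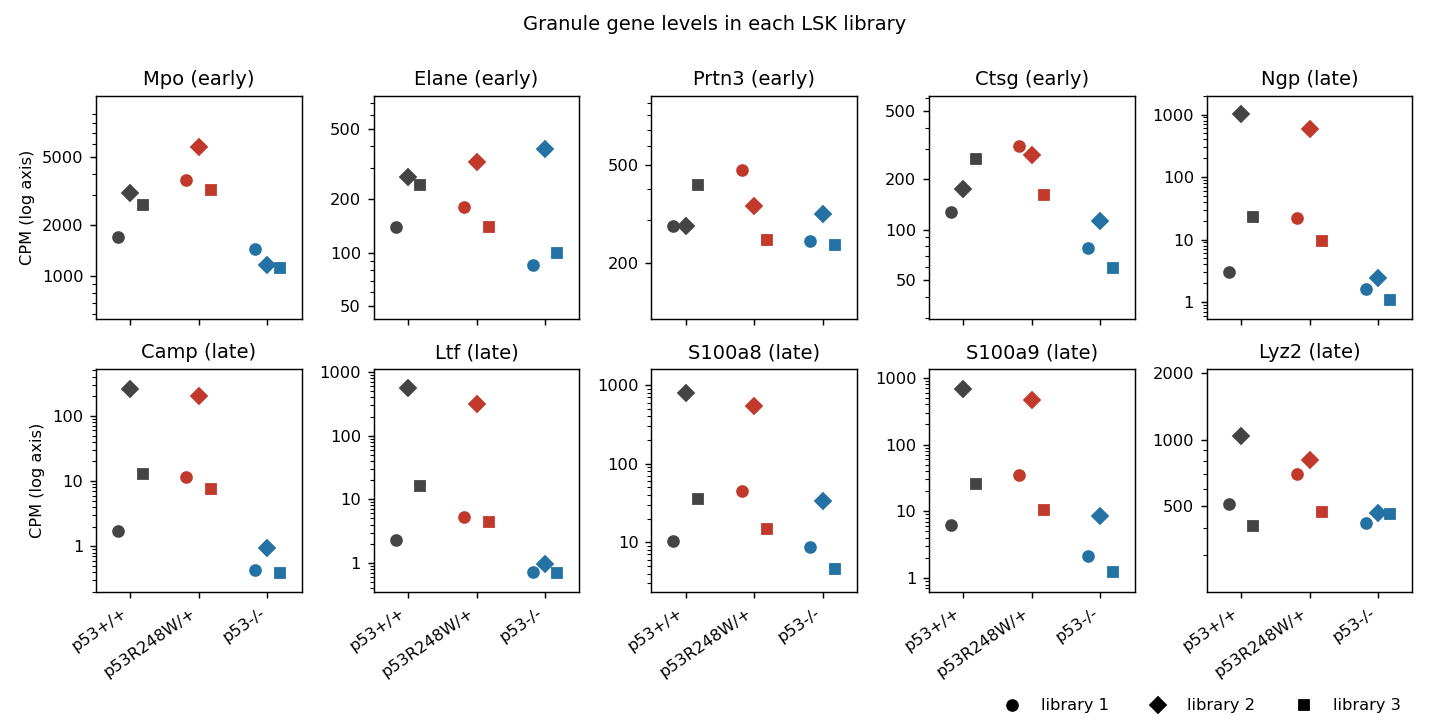
Levels of the 10 granule genes in CPM (log axes with a separate range for each gene) in each LSK library, grouped by genotype, with 1 point for each library and the marker shape giving the library number. Ngp, Camp, Ltf, S100a8, and S100a9 are highest in p53+/+ library 2 and p53R248W/+ library 2 (diamonds), while Mpo and Ctsg are lower in all p53-/- libraries than in all libraries of the other genotypes.

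Mpo was at 1712, 3087, and 2611 CPM in p53+/+ libraries 1, 2, and 3, at 3669.7, 5776, and 3213 CPM in p53R248W/+ libraries, and at 1456, 1169, and 1125 CPM in p53-/- libraries. The 3 genotypes formed 3 ranges without overlap, with p53R248W/+ at the top and p53-/- at the bottom. In p53R248W/+ against p53-/- LSKs Mpo was 3.38-fold higher (log2 fold change 1.76 ± 0.26 SE, adjusted p = 0.00778, edgeR's quasi-likelihood test with Benjamini-Hochberg adjustment over 12625 genes, n = 3 and 3). This call held under all 17 alternatives, with adjusted p from 1.02e-08 to 0.0403, and at 1.45 on the log2 scale without the libraries numbered 2 of p53+/+ and p53R248W/+ (adjusted p = 0.0187, edgeR). In p53R248W/+ against p53+/+ LSKs the log2 fold change was 0.77 ± 0.26 (unadjusted p = 0.0107, adjusted p = 1.00, edgeR), past the threshold under none of 17 alternatives. In p53-/- against p53+/+ LSKs the log2 fold change was -0.98 ± 0.26 (adjusted p = 0.0547, edgeR), and the adjusted p ran from 0.00502 (DESeq2) to 0.197 (without p53+/+ library 3) over the alternatives. It was below the threshold of 0.05 in 7 of 17 alternatives, which beside DESeq2 were the fit without p53+/+ library 1 (0.0318), without p53R248W/+ library 1 (0.0283), without p53R248W/+ library 2 (0.0493), with the replicate block (0.0430), with the 6 libraries alone (0.0229), and with at least 10 counts in every library (0.0499).

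Ctsg followed the same order of genotypes by its mean. It was at 126, 174, and 259.9 CPM in p53+/+, at 310.0, 275, and 159.9 CPM in p53R248W/+, and at 77.5, 112, and 59.3 CPM in p53-/- libraries. All p53-/- libraries were below all others, while p53+/+ and p53R248W/+ libraries overlapped. Against p53-/- LSKs, Ctsg was 2.99-fold higher in p53R248W/+ LSKs (log2 fold change 1.58 ± 0.32 SE, adjusted p = 0.0281, edgeR). The call was lost without p53R248W/+ library 2 (adjusted p = 0.0916), without p53-/- library 1 (0.104), without p53-/- library 3 (0.0926), and without the libraries numbered 2 of p53+/+ and p53R248W/+ (0.0968), at log2 fold changes of 1.39 to 1.51. Against p53+/+ LSKs, Ctsg had a log2 fold change of -1.17 ± 0.32 in p53-/- (adjusted p = 0.0619, edgeR) and of 0.41 ± 0.32 in p53R248W/+ LSKs (adjusted p = 1.00). The adjusted p in p53-/- against p53+/+ ran from 0.00667 to 0.253 over 17 alternatives.

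Elane and Prtn3 did not separate the genotypes. Elane was at 141, 267, and 240.2 CPM in p53+/+, at 180.4, 324, and 141 CPM in p53R248W/+, and at 85.2, 384, and 99.8 CPM in p53-/- libraries. Its highest and its lowest value thus both fell in p53-/- LSKs, and p53-/- library 2 was 4.15-fold above the mean of the other 2. Prtn3 ranged from 237 to 481 CPM over the 9 libraries, with all 3 genotypes overlapping. Their log2 fold changes lay between -0.30 and 0.42 in the 3 comparisons, with SEs of 0.25 to 0.51 and adjusted p of at least 0.361 (edgeR). Elane and Prtn3 share a locus, but the ratio of their counts was 1.22 in p53-/- library 2 and 0.348 to 0.951 in the other 8 libraries.

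The 5 late genes Ngp, Camp, Ltf, S100a8, and S100a9 had another pattern. Ngp was at 3.07, 1003, and 22.6 CPM in p53+/+, at 22.3, 584, and 9.51 CPM in p53R248W/+, and at 1.63, 2.39, and 1.08 CPM in p53-/- libraries. Ltf was at 2.27, 559, and 16.4 CPM in p53+/+, at 5.32, 312, and 4.39 CPM in p53R248W/+, and at 0.707, 0.949, and 0.687 CPM in p53-/- libraries. In both genes library 2 of p53+/+ and of p53R248W/+ was far above the other libraries of its genotype, and all p53-/- libraries were below all others. Camp was at 1.71, 261, and 12.8 CPM in p53+/+, at 11.7, 201, and 7.496 CPM in p53R248W/+, and at 0.435, 0.949, and 0.393 CPM in p53-/- libraries. The p53-/- libraries were again below all others, at counts of 8 to 21 reads.

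S100a8 and S100a9 were high in the same 2 libraries, but p53-/- and p53+/+ libraries overlapped at the low end. Between p53-/- and p53R248W/+ libraries S100a8 overlapped and S100a9 did not. S100a8 was at 10.4, 799, and 36.0 CPM in p53+/+, at 44.3, 548, and 14.6 CPM in p53R248W/+, and at 8.704, 33.1, and 4.62 CPM in p53-/- libraries. S100a9 was at 6.30, 674, and 25.5 CPM in p53+/+, at 34.6, 469.7, and 10.6 CPM in p53R248W/+, and at 2.12, 8.40, and 1.23 CPM in p53-/- libraries. The p53-/- library 2 was above p53+/+ library 1 in both genes. The ratio of S100a8 to S100a9 counts was 3.76 to 4.10 in p53-/- libraries and 1.17 to 1.65 in the other 6, so the range of p53-/- lay apart. This ratio was chosen after its values were seen.

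Library 2 of p53+/+ was 34.5 to 78.0-fold above the mean of the other 2 libraries of its genotype in these 5 genes, and library 2 of p53R248W/+ 18.6 to 64.2-fold. In the early genes the same ratios were 0.809 to 1.43 and 0.933 to 2.02. Lyz2, the sixth late gene, was at 514, 1042, and 409 CPM in p53+/+, at 701, 813, and 469 CPM in p53R248W/+, and at 422, 466, and 462 CPM in p53-/- libraries. Its library 2 was 2.26-fold above the mean of the others in p53+/+ and 1.39-fold in p53R248W/+. The 5 late genes took 0.338% of all counts in p53+/+ library 2 and 0.215% in p53R248W/+ library 2, and 0.000810% to 0.0113% in the other 7 libraries. The 4 early genes took 0.154% to 0.683% in all 9 libraries. The summed CPM of the early genes was 1.16 and 3.18-fold that of the 5 late genes in those 2 libraries, and 31.1 to 190.1-fold in the others.

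**Figure D2:**
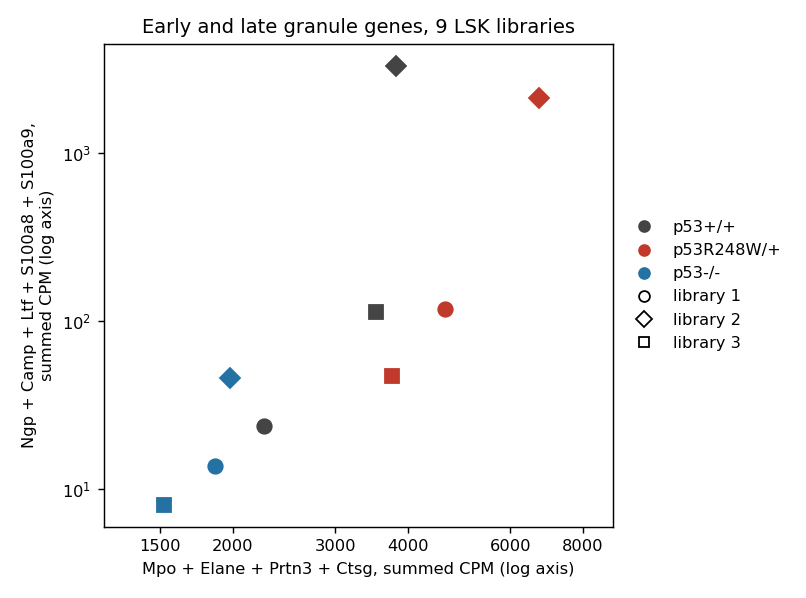
Summed CPM of the 4 early genes (horizontal, log axis) against summed CPM of the 5 late genes without Lyz2 (vertical, log axis), with 1 point for each of the 9 libraries, colored by genotype and shaped by library number. The vertical spread runs from 8.004 to 3297 CPM and the horizontal spread from 1522 to 6716 CPM, and p53+/+ library 2 and p53R248W/+ library 2 lie above the other 7.

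The spread within genotypes of the 5 late genes was among the highest of all genes. The pooled SD within genotypes of log2(CPM + 0.5) was 2.49 to 3.00 in Ngp, Ltf, S100a9, S100a8, and Camp, which ranked 5, 6, 15, 17, and 19 of 12625 genes. The median of all genes was 0.304. Without p53+/+ library 2 and p53R248W/+ library 2 the 5 genes were at 0.934 to 1.29, at ranks from 35 (S100a8) to 258 (Ltf), against a median of 0.317. With all 9 libraries, Mpo was at 0.378, Prtn3 at 0.356, Ctsg at 0.496, Lyz2 at 0.472, and Elane at 0.825. Across the 9 libraries Pearson's r of log2(CPM + 1) was 0.947 to 0.996 between the 5 late genes (10 pairs), 0.835 to 0.879 between each of them and Lyz2, and 0.396 to 0.867 between the early genes (6 pairs, median 0.555). Between an early gene and one of the 5 late genes r was 0.236 to 0.845 (20 pairs, median 0.650), and between an early gene and Lyz2 0.224 to 0.640 (median 0.470). Both ranges overlapped that of the pairs of early genes, whose median lay between these 2 medians. Without p53+/+ library 2 and p53R248W/+ library 2, r over 7 libraries was 0.635 to 0.990 between the 5 late genes. Between them and Lyz2 it was 0.0907 to 0.470, and between the early genes 0.0940 to 0.873 (median 0.585). Between an early gene and one of the 5 late genes it was 0.349 to 0.988 (median 0.811). Between an early gene and Lyz2 it was 0.0851 to 0.528 (median 0.477). The 9 points share genotype groups and the 2 libraries described above, and these values are a description without a test. Even without those 2 libraries the late genes differed between libraries of a genotype, since Ngp in p53+/+ library 3 was 7.37-fold its level in library 1.

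Without a test, the genes most like each class across the 9 libraries were also read. For the mean of the 6 late genes these were Chil3 (a chitinase-like protein of secondary granule stages, r = 0.995), Lcn2 (lipocalin 2, which binds siderophores, r = 0.987), Retnlg, Cd177, and Mmp8 (neutrophil collagenase, r = 0.969). For the mean of the early genes they were Dcps, Ly6e, Ifrd1, Ms4a3 (a marker of granulocyte and monocyte progenitors), and Rogdi, with r from 0.931 to 0.919. With the genotype means removed, r was 0.971 to 0.992 for the late set and 0.826 to 0.944 for the early set. Over the 7 libraries without p53+/+ library 2 and p53R248W/+ library 2, r was 0.823 to 0.967 for the late set and 0.892 to 0.935 for the early set.

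The first question was whether granule genes differ between p53R248W/+ and p53+/+ LSKs, and none of the 10 members was called. Over all genes tested, 0.00792% were called (1 of 12625). Mpo was the sole member with an unadjusted p below 0.05 (0.958% of all genes) and the sole member with all p53R248W/+ libraries above all p53+/+ libraries (2.66% of all genes). DESeq2 and limma-voom also called 0 members, and DESeq2 gave no p for the 5 late genes. The median log2 fold change was 0.27 over the early genes and -0.47 over the late genes, against 0.01 over all genes. The late median turned on single libraries, being 3.39 without p53+/+ library 2 and -3.32 without p53R248W/+ library 2. Without both, the log2 fold changes of the 5 late genes lay between -0.95 and 0.50, with SEs of 0.71 to 0.81.

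The second question was whether granule genes differ between p53-/- and p53+/+ LSKs, and 0 of 10 members were called, where 3.5% of all genes were (442 of 12625). All 10 log2 fold changes were negative, and 7 of 10 members had an unadjusted p below 0.05, against 12.5% of all genes in that direction (edgeR). In 5 of 10 members (Mpo, Ctsg, Ngp, Camp, and Ltf) all p53-/- libraries were below all p53+/+ libraries, against 16% of all genes. The median was -0.64 over the early genes and -6.57 over the late genes, against 0.00 over all genes. The late genes other than Lyz2 had log2 fold changes of -4.18 to -7.93 with SEs of 1.61 to 2.28 and adjusted p of 0.0588 to 0.148. The number of members called depended on the fit, at 2 by DESeq2 (Mpo and Ctsg), 0 by limma-voom, 5 without p53+/+ library 1, 6 without p53R248W/+ library 1, 4 without p53R248W/+ library 2, 0 without any other library, and 6 with the replicate block. DESeq2 gave no p here for the 5 late genes other than Lyz2.

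Without the libraries numbered 2 of p53+/+ and p53R248W/+, the late median was -2.45, 6 of 10 members had an unadjusted p below 0.05 and were lower (7.93% of all genes), and the SEs of the 5 late genes were 0.68 to 0.75. Ltf was then called at -3.56 ± 0.69 (adjusted p = 0.0455, edgeR), while Camp was at -3.58 ± 0.73 (adjusted p = 0.0574) and Ngp at -2.90 ± 0.68 (adjusted p = 0.0854). The p53+/+ libraries 1 and 3 were at 2.27 and 16.4 CPM of Ltf, and the 3 p53-/- libraries at 0.687 to 0.949 CPM. S100a8 was at -0.57 ± 0.72 in this fit and overlapped between the genotypes. Lyz2 was at -0.04 ± 0.24 and Elane at 0.00 ± 0.52.

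The third comparison was of p53R248W/+ with p53-/- LSKs, in which 2 of 10 members were called, Mpo and Ctsg, both higher in p53R248W/+. Of all genes tested, 3.44% were called (434 of 12625) and 2.34% were called higher. At an unadjusted p below 0.05, 7 of 10 members were higher, against 11.6% of all genes (edgeR). In 7 of 10 members all p53R248W/+ libraries were above all p53-/- libraries, against 12.1% of all genes. The exceptions were Elane, Prtn3, and S100a8. The median log2 fold change was 1.00 over the early genes and 6.17 over the late genes, against 0.02 over all genes. The late genes other than Lyz2 lay between 3.70 and 7.08 with SEs of 1.58 to 2.22 and adjusted p of 0.0672 to 0.206 (edgeR). The number of members called was 5 without p53+/+ library 2 or p53R248W/+ library 1, and 1 without p53R248W/+ library 2, p53-/- library 1, or p53-/- library 3, and 7 with the replicate block. Without the libraries numbered 2 of p53+/+ and p53R248W/+, Camp was called at 3.98 ± 0.74 (adjusted p = 0.0320) beside Mpo, the late median was 2.55, and 6 of 10 members were higher at an unadjusted p below 0.05 (6.97% of all genes). The 3 comparisons share their libraries pairwise and are not independent.

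**Figure D3:**
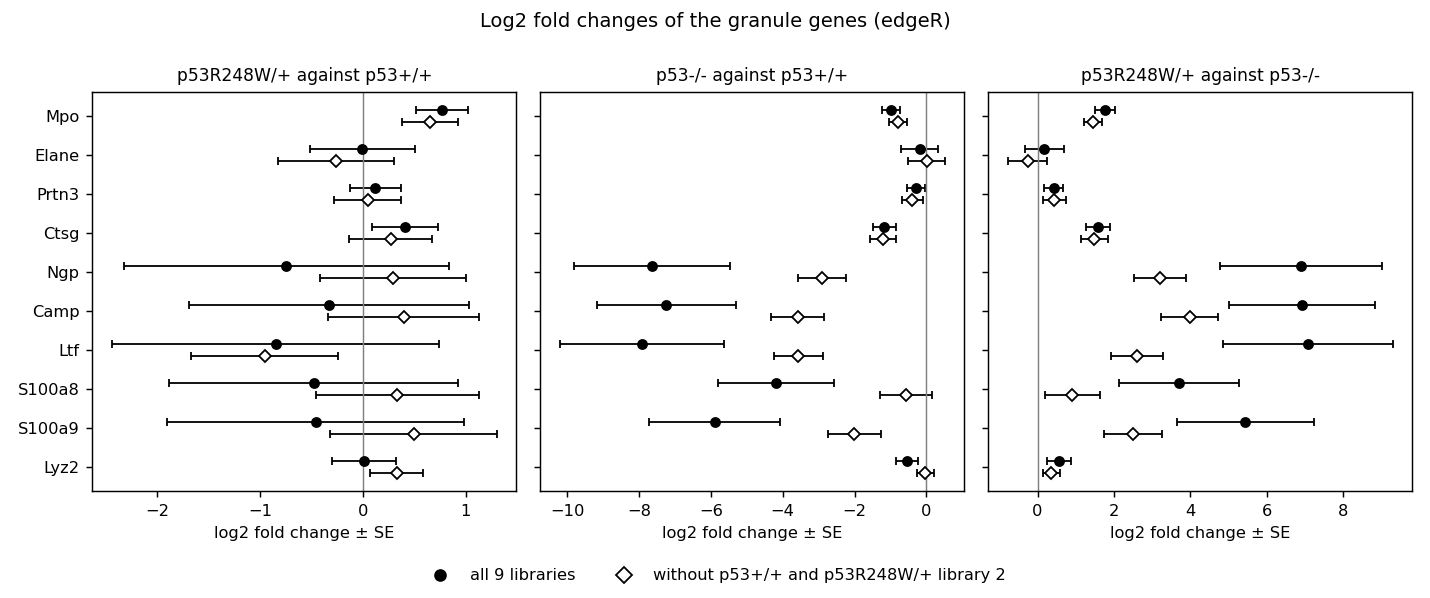
Log2 fold changes (horizontal, with SE as bars; each panel has its own range) of the 10 granule genes in the 3 comparisons, from edgeR fits to all 9 libraries (filled circles) and without p53+/+ library 2 and p53R248W/+ library 2 (open diamonds). The late genes other than Lyz2 move from between -4.18 and -7.93 to between -0.57 and -3.58 in p53-/- against p53+/+ LSKs, and Mpo and Ctsg change by at most 0.31 in any panel.

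Other genes of each granule stage were read from lists. Of 18 other primary granule genes, 0 were called in p53R248W/+ against p53+/+, 1 was lower in p53-/- against p53+/+, and 2 were higher in p53R248W/+ against p53-/- LSKs. Cst7 (cystatin F, an inhibitor of granule cathepsins) was at 85.7 ± 18.1 CPM in p53+/+, 109 ± 4.36 in p53R248W/+, and 41.5 ± 5.54 in p53-/- LSKs. It was called in p53-/- against p53+/+ (log2 fold change -1.05 ± 0.18, adjusted p = 0.0182) and in p53R248W/+ against p53-/- (1.39 ± 0.18, adjusted p = 0.00387, edgeR). Nkg7, of cytotoxic and myeloid granules, was called in the latter at 0.69 ± 0.17 (adjusted p = 0.0479). The median of the 18 genes was 0.03, -0.07, and 0.07 in the 3 comparisons, with members on both sides of 0 (8 higher and 10 lower in p53-/- against p53+/+ LSKs).

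Of 18 other secondary and tertiary granule genes tested, 1 was called in all, Slpi (secretory leukocyte protease inhibitor), higher in p53R248W/+ than in p53-/- LSKs (1.40 ± 0.31, adjusted p = 0.0353, edgeR). In p53-/- against p53+/+ LSKs 11 of 18 had an unadjusted p below 0.05 and were lower (12.5% of all genes), with a list median of -2.56. Without p53+/+ library 2 and p53R248W/+ library 2, 6 of the 17 still tested were lower at that p (7.93% of all genes), 1 was higher, and the median was -0.73. The libraries that set the late members apart did so here too, since Lcn2, Mmp8, Mmp9 (gelatinase B), Chil3, Cd177, Fpr1, and Retnlg were among the 22 genes at least 8-fold higher in library 2 of both p53+/+ and p53R248W/+. Lcn2 was at 1.21, 171, and 7.81 CPM in p53+/+, at 4.24, 116, and 1.33 CPM in p53R248W/+, and at 0.452 to 0.491 CPM in p53-/- libraries. None of the 4 early members, 18 other primary granule genes, 14 mature neutrophil genes, or 14 monocyte genes was among the 22.

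Some markers of other cells were high in the same 2 libraries. Ranked by the smaller fold of the 2 genotypes, Epx was at rank 1 of the 22. Ear1, Prg3, Alox15, Fn1, Ear6, Chil1, and Fcnb, also among the 22, were on none of the lists. Of 11 eosinophil, basophil, and mast cell genes, 3 were among the 22, Epx (eosinophil peroxidase), Prg2 (eosinophil major basic protein), and Prss34 (a basophil protease). Below the 8-fold limit, Mcpt8, Cpa3, Ms4a2, Fcer1a, and Gata1 of the list were also highest in library 2 of both p53+/+ and p53R248W/+. Mcpt8 was at 7.36, 55.4, and 20.02 CPM in p53+/+ and at 19.4, 55.6, and 15.3 CPM in p53R248W/+ libraries. Il5ra was highest there in neither genotype. Tpsb2 and Cma1 were lowest in library 2 of both, with Tpsb2 at 2.57, 0, and 0.892 CPM in p53+/+ libraries 1, 2, and 3. None of the monocyte, macrophage, erythroid, B cell, or T and NK cell genes was among the 22. Prg2 was at 3.38, 484, and 15.3 CPM in p53+/+, at 19.1, 290 and 1.83 CPM in p53R248W/+, and at 1.80, 142, and 1.67 CPM in p53-/- libraries. Library 2 was the highest in all 3 genotypes, whereas Ngp and Ltf stayed below 3 CPM in p53-/- library 2. Summed over the list, the 11 genes were at 892 and 609 CPM in library 2 of p53+/+ and p53R248W/+, at 298 CPM in p53-/- library 2, and at 47.7 to 99.6 CPM in the other 6. The part of such cells in the late values was not tested. In the same order the 14 mature neutrophil genes were at 1149, 1128, and 580.0 CPM and at 797 to 998 CPM in the other 6, and the 13 LSK-defining genes at 5072, 4577, and 5046 CPM and at 4014 to 5564 CPM. At 0 counts were 0 of the 21 other secondary and tertiary granule genes in library 2 of p53+/+ and p53R248W/+, and 2 to 7 in the other libraries.

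**Figure D4:**
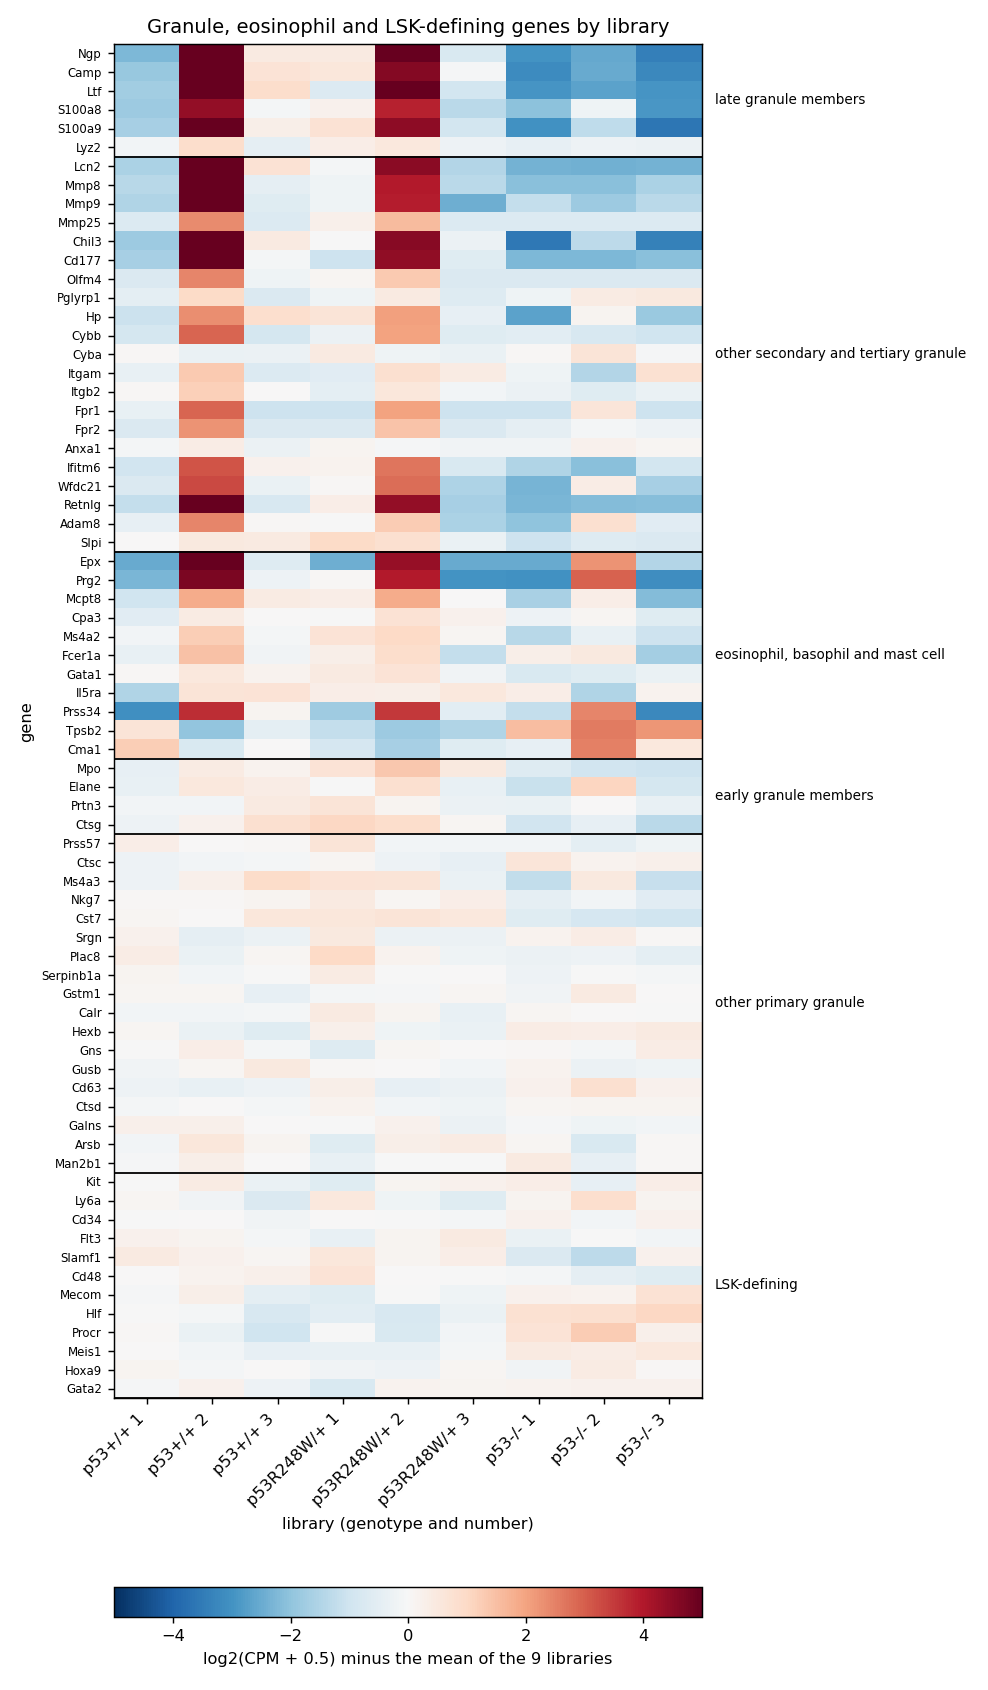
Color map of log2(CPM + 0.5) minus the mean of the 9 libraries, with 1 line for each gene drawn from 6 lists (vertical) and 1 column for each library (horizontal); colors saturate at 5 in either direction. The late members other than Lyz2, 7 other secondary and tertiary granule genes, Epx, Prg2, and Prss34 are high in p53+/+ library 2 and p53R248W/+ library 2, while LSK-defining genes vary little.

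Transcription factors and receptors of the myeloid lineage gave 1 called gene. Of 18 genes 0 were called in p53R248W/+ against p53+/+, and Irf8 (which directs monocyte and dendritic cell fate) was the sole call in the other comparisons. Irf8 was at 218, 249.9, and 235 CPM in p53+/+, at 298, 365, and 237 CPM in p53R248W/+, and at 108, 82.8, and 125 CPM in p53-/- libraries. All p53-/- libraries were below the rest, at -1.15 ± 0.20 against p53+/+ (adjusted p = 0.0183), and p53R248W/+ was at 1.51 ± 0.21 against p53-/- (adjusted p = 0.00445, edgeR). Cebpe, which encodes C/EBPε, was at 0.605, 7.37, and 1.28 CPM in p53+/+, at 1.08, 5.15, and 1.05 CPM in p53R248W/+, and at 0.870, 2.44, and 0.933 CPM in p53-/- libraries, highest in the libraries numbered 2. Spi1 (PU.1) ranged from 170.0 to 230.4 CPM over the 9 libraries, Cebpa from 23.5 to 52.1 CPM, and Gfi1 (a repressor needed for neutrophil development) from 38.0 to 75.4 CPM, with adjusted p of at least 0.270 in all comparisons. In p53-/- against p53+/+ LSKs 3 of 18 had an unadjusted p below 0.05 and were lower (12.5% of all genes), and beside Irf8 these were Csf2rb (-1.001 ± 0.26, adjusted p = 0.0549) and Csf2ra (-0.82 ± 0.24, adjusted p = 0.0742, edgeR), subunits of the GM-CSF receptor. They were named after their values were seen.

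The remaining lists gave few calls, none of them in p53R248W/+ against p53+/+ LSKs. Among 14 monocyte genes F13a1 (coagulation factor XIII A chain) was lower in p53-/- than in p53+/+ LSKs (-2.70 ± 0.42, adjusted p = 0.0124) and higher in p53R248W/+ than in p53-/- LSKs (2.88 ± 0.42, adjusted p = 0.00662), as was Ms4a6c in the latter (1.62 ± 0.27, adjusted p = 0.0126). F13a1 was at 39.8, 61.4, and 47.7 CPM in p53+/+, at 46.7, 95.5, and 26.0 CPM in p53R248W/+, and at 6.75, 6.05, and 10.02 CPM in p53-/- libraries, without overlap of p53-/- and the others. Of 13 LSK-defining genes, Hlf (a factor of HSCs) was higher in p53-/- than in p53+/+ LSKs (1.14 ± 0.22, adjusted p = 0.0242), and Hlf and Meis1 were lower in p53R248W/+ than in p53-/- LSKs (-1.41 and -0.74). Among 10 macrophage genes, Hmox1 (heme oxygenase) was called lower in p53R248W/+ than in p53-/- LSKs (-1.18 ± 0.27). Of these 10 genes, 9 were lower in that comparison (6104 of all 12625 genes were), with a median of -1.27. Without p53+/+ library 2 and p53R248W/+ library 2, 8 of 10 were lower at an unadjusted p below 0.05 (5.81% of all genes, edgeR). Among 11 eosinophil, basophil, and mast cell genes, Tpsb2 (a mast cell tryptase) was lower in p53R248W/+ than in p53-/- LSKs (-5.30 ± 1.09). Car2 of the 7 erythroid genes and Lck of the 7 T and NK cell genes were called in both comparisons with p53-/- LSKs. Car2 was higher in p53-/- (0.85 ± 0.17 against p53+/+) and Lck lower (-0.77 ± 0.19). Car2 did not stand for its list, in which p53-/- against p53+/+ gave 3 positive and 4 negative log2 fold changes (list median -0.02). Without p53+/+ library 2 and p53R248W/+ library 2 this erythroid median was 0.82. At an unadjusted p below 0.05, 3 of the 7 erythroid genes then rose and 1 fell (7.03% and 7.93% of all genes, edgeR). None of 9 B cell genes was called, and Cd74, Cd79b, and Cd79a had the highest levels of that list (183, 73.5, and 5.29 RPKM). Without the libraries numbered 2 of p53+/+ and p53R248W/+, of the list genes called outside the members, F13a1 was called in p53-/- against p53+/+ LSKs, and Cst7, F13a1, Ms4a6c, Irf8, Hlf, and Tpsb2 in p53R248W/+ against p53-/- LSKs, where 59 and 77 of all genes were called.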

How the data were processed

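RNA from LSKs of p53+/+, p53R248W/+, and p53-/- mice was sequenced (3 libraries for each genotype). The study's methods describe oligo(dT) selection and random hexamers, while the labels name a SMART-Seq v4 kit. The authors deposited a table of raw read counts per gene for each library, without normalization. The submitters' processing notes name STAR 2.5.2b, featureCounts (Subread 1.5.0), edgeR, and mm10. Strand use in counting is not given in the sources used here. Further columns with the authors' comparisons of genotypes (log2 fold change, p-value, and FDR) were not used.

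Counts were filtered with edgeR's filterByExpr (12625 of 12647 genes kept), scaled by TMM (factors 0.935 to 1.04), and fitted together for the 9 libraries by edgeR's quasi-likelihood method, with genotype as the factor (edgeR 4.0.16, R 4.3.3). The biological coefficient of variation was 0.281. Genes were called at an adjusted p below 0.05 (Benjamini-Hochberg over all genes tested). The SE is the log2 fold change divided by the square root of its F statistic. RPKM used the deposited gene lengths. Positions and promoters came from RefSeq (GRCm38.p6, the coordinates of mm10).

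The members, lists, and motifs were chosen with earlier results of these data known. The text names all members, up to 3 called genes per list and direction by smallest p (for a list without calls the 3 highest by RPKM), the factors Cebpa, Cebpe, Gfi1, and Spi1, and the 5 genes most like each class with a mean of at least 5 CPM. The lists were other primary granule, other secondary and tertiary granule, mature neutrophil, monocyte, macrophage, eosinophil, basophil and mast cell, erythroid, B cell, T and NK cell, LSK-defining, and myeloid regulator genes. Genes outside the table given, such as Ly6g, Lyz1, and the globin genes, were not analysed here, and some list genes are not reported here by name.

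As alternatives, edgeR was run with the size factors of DESeq2 (1.42.0), and DESeq2 itself and voom (limma 3.58.1) were applied. Others were no filter, at least 10 counts in every library, a replicate block, the 6 libraries compared alone, and leaving out each library. Leaving out the libraries numbered 2 of p53+/+ and p53R248W/+ together was added after seeing the data. Counts of libraries of a genotype differed by more than sampling noise in every pair, which by itself does not show that they came from separate RNA. The sum of 4 Y-linked genes also differed, at 0.216, 69.8, and 184 CPM in p53R248W/+ libraries 1, 2, and 3. It was at 0.101, 110, and 0.167 CPM in p53+/+ libraries and at most 0.0491 CPM in p53-/- libraries. The fits were tested on simulated data. Figures and summaries were made with Python 3.11.15.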

Additional observations from a re-analysis of the deposited data

How the results depend on the processing

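All but the last of the alternatives were listed at the start, and the call of Mpo in p53R248W/+ against p53-/- LSKs was past the threshold in each of them. Over single members, 422 values kept their direction and did not cross the threshold, and 36 changed sign. Another 45 passed the threshold, and 4 (all of Ctsg in p53R248W/+ against p53-/-) no longer passed it. The 422 include DESeq2 values of the 5 late genes other than Lyz2, which had no p and were compared by direction alone. Beyond the calls given above, the causes were not tested. With DESeq2, all genes called rose to 6 in p53R248W/+ against p53+/+, 1552 in p53-/- against p53+/+, and 1325 in p53R248W/+ against p53-/- LSKs, and members called in p53-/- against p53+/+ to 2, where the 5 late genes other than Lyz2 had no p. At least 10 counts in every library left 11693 genes, with 0 genes called in p53R248W/+ against p53+/+ and 1 member in p53-/- against p53+/+. With the 6 libraries alone, 6 members and 894 genes were called in p53-/- against p53+/+, and 208 genes in p53R248W/+ against p53-/-. In p53R248W/+ against p53+/+, limma-voom turned the log2 fold changes of Ngp (0.21), Camp (0.45), S100a8 (0.0499), and S100a9 (0.18).

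Deviations from the genotype means were correlated between libraries of 2 genotypes. For p53R248W/+ and p53+/+, same-numbered libraries were at 0.361, 0.544, and 0.0388, and those with different numbers at -0.476 to 0.00934. Same-numbered libraries of p53-/- were at -0.0946 to 0.00567 with p53+/+ and at -0.108 to 0.132 with p53R248W/+. Each p53R248W/+ library correlated best with the p53+/+ library of its number. The study names no pairing, so a pairing rests on this hint and on the form of the names. With the replicate block, 2 genes were called in p53R248W/+ against p53+/+ (with Camp at 0.22), 882 genes and 6 members in p53-/- against p53+/+, and 672 genes and 7 members in p53R248W/+ against p53-/-.

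Without the libraries numbered 2 of p53+/+ and p53R248W/+, added after seeing the data, Ngp was at 0.30, Camp at 0.40, S100a8 at 0.34, and S100a9 at 0.50 in p53R248W/+ against p53+/+. In p53-/- against p53+/+, 1 member and 59 genes were called, with a late median of -2.45 and Elane at 0.0018, and in p53R248W/+ against p53-/- 77 genes, with a late median of 2.55 and Elane at -0.26.

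Leaving out each library in turn gave ranges. In p53R248W/+ against p53+/+ the late median ran from -3.32 to 3.39, Ngp from -4.43 to 3.999, Camp from -3.25 to 3.34, Ltf from -5.31 to 3.52, S100a8 from -3.25 to 3.13, S100a9 from -3.38 to 3.43, Elane from -0.43 to 0.22, Prtn3 from -0.16 to 0.34, and Lyz2 from -0.23 to 0.52. In p53-/- against p53+/+ 0 to 6 members and 37 to 1485 genes were called, the late median ran from -7.46 to -2.45, and Elane from -1.22 to 0.19. In p53R248W/+ against p53-/- 1 to 5 members and 77 to 1559 genes were called, the late median ran from 2.57 to 6.96, and Elane from -0.24 to 1.22. The late genes in p53-/- libraries rest on as few as 8 counts, and 3 libraries per genotype limit every test here.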
